A study of Mus musculus with 10 samples.

Results

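RNA of genes for bone formation and bone resorption was described in the inner ear of mouse embryos late in gestation, at stage E16.5. The members were 35 genes named for their known roles in osteoblasts, osteocytes, osteoclasts and bone matrix, found by gene symbol. Of these, 29 had values among the 15472 genes of the deposited table. Values for the other 6, Bglap, Bglap2, Mepe, Sost, Mmp13 and Tnfsf11, were not analysed here. The study compared 5 inner ear samples homozygous for the nmf219 allele of Tbx1 (genotype nmf219/nmf219, here nmf219) with 5 wild-type samples (genotype +/+, here WT). All 10 samples were on the C57BL/6 strain and of the same age. Tbx1 encodes a T-box transcription factor of the ear vesicle and the mesenchyme around it. The labels do not say whether samples came from separate animals or litters. The p-values below cover only how these samples vary, which may be technical in part.

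Osteoblasts lay down a matrix that is mostly type I collagen and then load it with mineral, under the transcription factors Runx2 and Sp7. Osteocytes are osteoblasts that have been buried in this matrix, and osteoclasts are cells of the blood lineage that dissolve it with acid and proteases. The inner ear lies in the otic capsule, which is cartilage at this stage and ossifies later, and type I collagen is also made by the loose mesenchyme and fibroblasts around the ear. RNA of whole ears pools all of these cells, so that fewer cells of a type and less RNA per cell cannot be told apart.

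Values are normalized reads per gene, on a scale close to CPM. Depth over the listed genes was 35293445 to 40942278 reads for nmf219 samples and 31244799 to 41875972 reads for WT samples (two-sided exact permutation test of log2 reads, p = 0.357, 5 against 5). A count of 3 reads corresponds to a value of 0.0716 to 0.0952. RNA of Tbx1 averaged 25.2 ± 2.02 in nmf219 and 24.3 ± 4.08 in WT (SD, n = 5 each), which does not check the labels because the allele need not change its own RNA. All 12 inner ear markers were above 0 in every library, led by the otoconial protein gene Oc90 at 1159 ± 64.9 in nmf219 and 1172 ± 65.6 in WT. Not all were this level: Pax2 averaged 6.90 ± 1.01 in nmf219 and 10.5 ± 1.70 in WT. RNA of Xist, made in female cells, was at 2555 to 3481 in all nmf219 libraries, at 3785 and 3526 in WT replicates 1 and 2, and at 15.7, 0.668 and 2.42 in WT replicates 3, 4 and 5. Sex and genotype were thus not balanced.

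None of the 29 bone genes passed the test between genotypes. The test was limma on log2(value + 1), with p-values adjusted over all 15472 genes by the Benjamini-Hochberg method and a threshold of 0.05. It called 0 of the 29, against 0.084% of all genes (0.0129% higher and 0.0711% lower in nmf219). At an unadjusted p under 0.05 there were 8 of the 29, against 7.11% of all genes (3.88% higher and 3.23% lower). Col1a1, Col1a2, Col5a2 and Spp1 were on the higher side in nmf219, and Bmp3, Vdr, Cthrc1 and Mmp9 on the lower side. The log2 fold change was above 0 for 21 genes and below 0 for 8, and it was above 0 for 46.9% of all genes. The median log2 fold change was 0.13 over the 29 genes and -0.01 over all genes, and without WT replicate 4 that of the 29 was 0.04. Log2 fold changes here are nmf219 over WT on the scale of log2(value + 1). Among regulators and receptors 3 of 5 lay above 0, with a median of 0.00. Of the genes for osteoblast matrix and mineralization 9 of 11 lay above 0 (median 0.22), and of those for collagen processing and connective matrix 5 of 7 (median 0.27). Both late genes lay above 0 (median 0.16), as did 1 of 3 resorption enzymes (median -0.05). These are counts of sign, and none of the genes behind them passed the test.

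**Figure D1:**
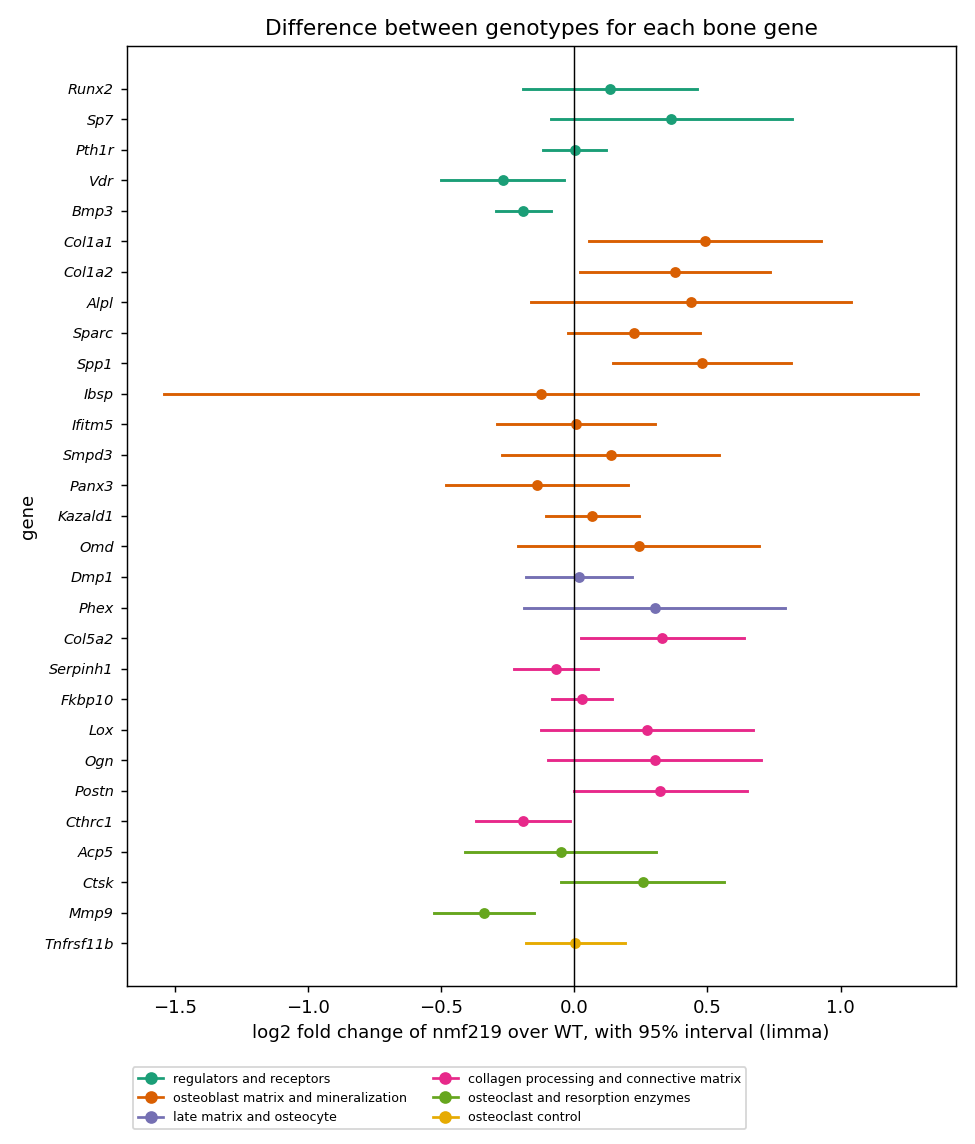
Log2 fold change of nmf219 over WT for each of the 29 genes, with its 95% interval from limma, coloured by role. Most intervals include 0; Col1a1, Col1a2, Spp1 and Col5a2 lie above 0 and Bmp3, Vdr, Cthrc1 and Mmp9 below, and no gene passed the adjusted test.

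The authors' deposited table gives a false discovery rate under 0.05 for 7 of the 29, against 3.26% of all genes. In the authors' deposited table, Sp7, Col1a1, Col1a2, Alpl and Spp1 are the 5 higher in the mutant, against 2.55% of all genes, and Ibsp and Mmp9 the 2 lower, against 0.711%. The authors' deposited table gives a log2 fold change of 0.44 for Col1a1 (false discovery rate 0.00113) and 0.47 for Spp1 (false discovery rate 0.000741). The authors' deposited table puts the false discovery rate of Ibsp at 1.82e-09, with a log2 fold change of -0.79. The library values of Ibsp, given below, overlapped between genotypes, and 1 WT library held most of the WT sum. How the authors' test treated the spread between libraries is not given in the sources used here.

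Single libraries stood out across many of these genes. WT replicate 4 had the lowest value of all 10 libraries for 16 of the 29 genes, as it did for 23.1% of all genes. It had the highest value for 3 of the 29, and for 24.2% of all genes. WT replicate 5 had the highest for 11 of the 29, and for 12.4% of all genes. The median SD between libraries on the log2 scale was 0.16 in nmf219 and 0.33 in WT for the bone genes, and 0.08 in nmf219 and 0.10 in WT for all genes. Groups did not overlap for 1 of the 29 genes, Mmp9, against 1.17% of all genes. Without WT replicate 4 the log2 fold change was 0.32 for Col1a1, 0.25 for Col1a2, 0.20 for Col5a2, 0.24 for Alpl and 0.19 for Postn. In the same libraries it was 0.15 for Ctsk, 0.14 for Ogn, 0.10 for Phex, 0.09 for Lox and -0.11 for Cthrc1. Each of these 10 values was smaller in size, by more than 1.5 times, than the value over all libraries, given below. Spp1, at 0.41, and Mmp9, at -0.36, moved less without it.

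**Figure D2:**
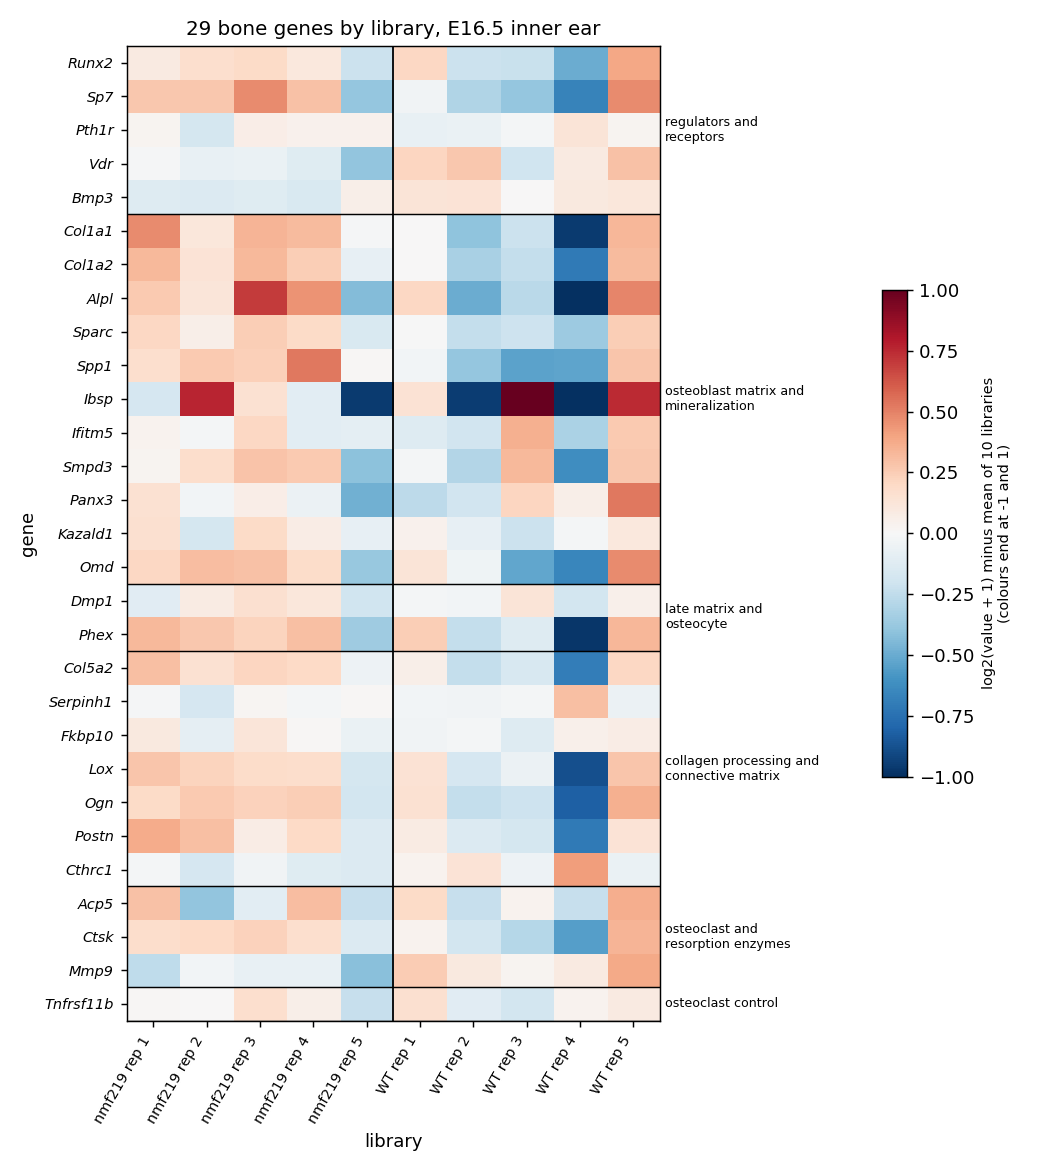
Each of the 29 genes (rows, grouped by role) in each library (columns, nmf219 left and WT right), as log2(value + 1) minus the mean of the 10 libraries; colours end at -1 and 1. WT replicate 4 holds the lowest value of 16 genes, and Ibsp varies most, with WT replicate 3 far above the rest.

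The transcription factors that set the osteoblast fate were measured in every library. Runx2, which starts the osteoblast program, was at 67.8, 71.6, 72.5, 68.3 and 54.5 in nmf219 replicates 1 to 5 and at 73.5, 54.7, 54.4, 44.7 and 83.5 in WT replicates 1 to 5. The WT range enclosed the nmf219 range, and the log2 fold change was 0.13 (SE 0.15, limma adjusted p = 0.818). Sp7, which acts after Runx2, was at 10.9, 10.9, 12.7, 11.1 and 6.55 in nmf219 and at 8.64, 7.04, 6.57, 5.23 and 12.8 in WT. Its mean was 10.4 ± 2.30 in nmf219 and 8.05 ± 2.90 in WT. The log2 fold change was 0.36 (SE 0.21, limma adjusted p = 0.706). The lowest nmf219 library of Sp7 lay among the low WT libraries, and WT replicate 5 lay at the top of both genotypes.

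Receptors and a signal of the osteoblast lineage had means that were level or lower in nmf219. Pth1r, the receptor for parathyroid hormone and its related peptide, averaged 47.0 ± 3.17 in nmf219 and 46.9 ± 2.78 in WT, with a 95% interval of the log2 fold change from -0.12 to 0.12. Vdr, the vitamin D receptor, was at 5.26, 5.01, 5.06, 4.81 and 3.80 in nmf219 and at 6.35, 6.63, 4.51, 5.73 and 6.76 in WT. WT replicate 3 was the 1 WT library of Vdr inside the nmf219 range, and the log2 fold change was -0.27 (SE 0.11, limma adjusted p = 0.680). Bmp3, a secreted antagonist of bone-inducing BMP signals, was at 32.3, 32.0, 32.4, 31.7 and 37.0 in nmf219 and at 38.7, 39.0, 35.5, 37.8 and 38.3 in WT. For Bmp3, 4 nmf219 libraries lay below every WT library, while replicate 5 lay above WT replicate 3. Its log2 fold change was -0.19 (SE 0.05, limma adjusted p = 0.403), with an unadjusted p of 0.00163, and it was -0.26 in samples with description numbers 2162 to 2169 and -0.12 in numbers 2199 to 2208. These number ranges hold both genotypes, while the library numbers in the labels differ wholly between genotypes and cannot be told apart from them. The lower range holds nmf219 replicates 1, 2 and 3 and WT replicates 2 and 5. The upper range holds nmf219 replicates 4 and 5 and WT replicates 1, 3 and 4.

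The chains of type I collagen, the main protein of bone matrix, followed each other closely over the libraries, with higher means in nmf219 that did not pass the test. Col1a1 (ENSMUSG00000001506, chromosome 11, from 94936224 to 94953042 on a build that no source used here gives) encodes the alpha-1 chain. It was at 6190.4, 4819, 5648, 5545 and 4417 in nmf219 and at 4479, 3381, 3836, 2300.5 and 5611 in WT. Its mean was 5324 ± 704 in nmf219 and 3921 ± 1234 in WT, 1.36 times the WT mean. The log2 fold change was 0.49 (SE 0.20, 95% interval 0.06 to 0.93, limma adjusted p = 0.680), and 0.34 and 0.54 within the lower and the upper range of description numbers. The genotypes overlapped, with 2 WT libraries above the lowest nmf219 library. Col1a2, the alpha-2 chain, was at 6054, 5306, 6031, 5711 and 4556 in nmf219 and at 4831, 3860.5, 4099.6, 2959 and 5997 in WT (log2 fold change 0.38, limma adjusted p = 0.680). Its 10 libraries stood in the same order as those of Col1a1. Per kilobase of exon, Col1a1 averaged 811 in nmf219 and 597.5 in WT, and Col1a2 445 in nmf219 and 350.0 in WT. On that scale the collagen chaperone gene Serpinh1 averaged 747 in nmf219 and 786 in WT, so Col1a1 had the highest mean of the 29 in nmf219 and Serpinh1 in WT.

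**Figure D3:**
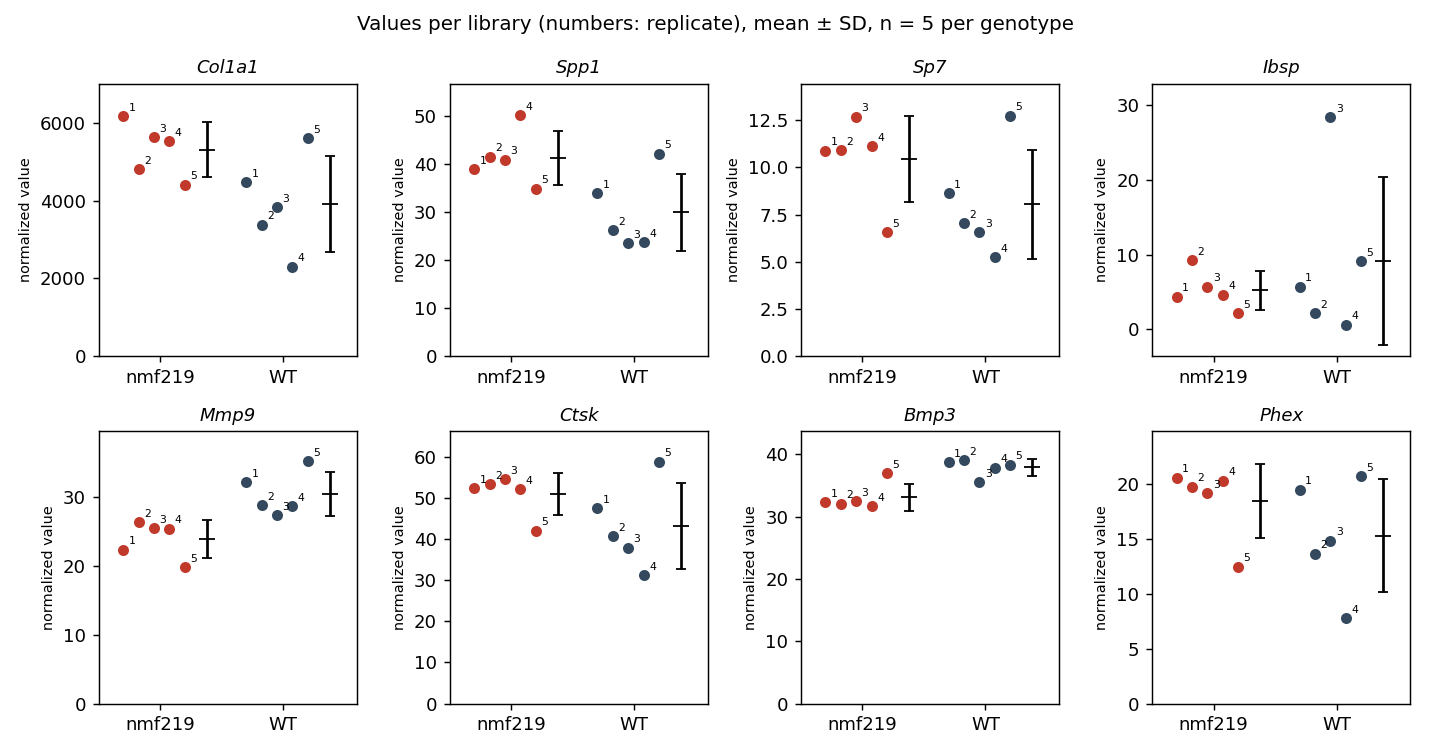
Normalized values of 8 bone genes in each library, nmf219 left and WT right, numbered by replicate, with the mean and SD of 5 libraries beside the points. Mmp9 is the 1 gene of these whose genotypes do not overlap, and the WT point at 28.4 sets Ibsp apart.

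Other genes of the young bone matrix had higher means in nmf219 and overlapped between genotypes. Sparc, or osteonectin, which binds collagen and calcium, averaged 2192 ± 235 in nmf219 and 1889.5 ± 328 in WT (SD, n = 5 each; log2 fold change 0.22, limma adjusted p = 0.693). Alpl, the tissue-nonspecific alkaline phosphatase that frees phosphate for mineral, was at 33.6, 30.4, 45.7, 38.3 and 20.4 in nmf219 and at 32.4, 19.4, 22.9, 13.1 and 39.5 in WT. Alpl varied more than 2-fold within each genotype, and its log2 difference was 0.44 (SE 0.27, limma adjusted p = 0.717). Spp1, osteopontin, an acidic phosphoprotein that binds mineral and integrins, was at 38.9, 41.5, 40.8, 50.2 and 34.8 in nmf219 and at 33.9, 26.2, 23.5, 23.6 and 42.1 in WT. For Spp1, 4 WT libraries lay below every nmf219 library and WT replicate 5 lay within the nmf219 range. The log2 fold change of Spp1 was 0.48 (SE 0.15, 95% interval 0.14 to 0.81, limma adjusted p = 0.680), with an unadjusted p of 0.00907. It was 0.27 and 0.63 within the lower and the upper number range.

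Other genes of mineralizing osteoblasts and their matrix had log2 fold changes on both sides of 0, above it for Ifitm5, Smpd3, Kazald1 and Omd and below it for Ibsp and Panx3. Ibsp, bone sialoprotein, which seeds mineral crystals, was at 4.38, 9.22, 5.70, 4.60 and 2.11 in nmf219 and at 5.67, 2.12, 28.4, 0.597 and 9.12 in WT. It spanned 47.6-fold between its highest library, WT replicate 3, and its lowest, WT replicate 4, so both ends of its range were WT. The log2 fold change was -0.12 (SE 0.65, 95% interval -1.54 to 1.29, limma adjusted p = 0.965), and it was 0.43 without WT replicate 3 and -0.62 without WT replicate 4. Ifitm5, a membrane protein of mineralizing osteoblasts, was at 0.944, 0.871, 1.18, 0.763 and 0.766 in nmf219 and at 0.730, 0.657, 1.43, 0.525 and 1.27 in WT. Its highest and lowest libraries were the same as those of Ibsp. Smpd3, a sphingomyelinase needed for mineralization, averaged 14.3 ± 2.74 in nmf219 and 13.1 ± 3.68 in WT, again highest in WT replicate 3 and lowest in WT replicate 4. Panx3, a channel protein of osteoblasts and hypertrophic cartilage cells, averaged 6.29 ± 1.13 in nmf219 and 7.11 ± 1.86 in WT. Kazald1, a secreted protein of bone regeneration, averaged 30.8 ± 3.46 in nmf219 and 29.3 ± 2.55 in WT, and Omd, osteomodulin, a proteoglycan of mineralized matrix, 22.0 ± 4.02 in nmf219 and 19.0 ± 6.41 in WT. None of these 6 genes had an unadjusted p under 0.05.

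Ibsp, Spp1 and Dmp1 are neighbours on chromosome 5, between 104202613 and 104441050 as the deposited table counts. Over the 10 libraries Dmp1 had a Spearman's rho of 0.81 with Ibsp, and Spp1 one of 0.24. The 250 bases before the RefSeq start of Ibsp, Spp1, Col1a2 and Runx2 are shown because these genes stand for the patterns above and for the regulator of the osteoblast fate. They come from RefSeq, build GRCm38.p6, as Ibsp chr5:104299037-104299286, Spp1 chr5:104434861-104435110 and Col1a2 chr6:4505368-4505617 on the plus strand and Runx2 chr17:44814628-44814877 on the minus strand. Capitals mark the core letters bound by RUNX factors, TGTGGT or its reverse complement ACCACA, and the CCAAT box, CCAAT or ATTGG.
Ibsp: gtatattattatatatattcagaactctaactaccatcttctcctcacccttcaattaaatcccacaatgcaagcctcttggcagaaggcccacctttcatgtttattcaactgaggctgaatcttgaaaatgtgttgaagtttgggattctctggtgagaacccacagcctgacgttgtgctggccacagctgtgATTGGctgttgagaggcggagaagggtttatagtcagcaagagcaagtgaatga
Spp1: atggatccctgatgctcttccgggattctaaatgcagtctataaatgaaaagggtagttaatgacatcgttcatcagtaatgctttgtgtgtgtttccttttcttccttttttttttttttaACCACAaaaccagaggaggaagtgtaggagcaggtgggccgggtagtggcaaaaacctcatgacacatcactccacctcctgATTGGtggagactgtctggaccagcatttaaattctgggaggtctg
Col1a2: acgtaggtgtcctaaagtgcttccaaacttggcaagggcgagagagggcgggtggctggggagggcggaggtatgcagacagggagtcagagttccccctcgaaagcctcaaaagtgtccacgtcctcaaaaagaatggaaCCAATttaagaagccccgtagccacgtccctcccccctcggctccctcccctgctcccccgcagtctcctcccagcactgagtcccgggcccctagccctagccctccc
Runx2: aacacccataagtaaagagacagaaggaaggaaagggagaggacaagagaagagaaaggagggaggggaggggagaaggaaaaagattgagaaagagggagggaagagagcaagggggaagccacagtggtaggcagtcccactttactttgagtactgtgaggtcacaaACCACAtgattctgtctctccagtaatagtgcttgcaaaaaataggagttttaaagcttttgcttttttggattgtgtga
The RUNX letters stood in the windows of Spp1 and Runx2 and not in those of Ibsp and Col1a2, and a CCAAT box stood in the windows of Ibsp, Spp1 and Col1a2. Of the 18 measured bone genes with a window of this kind, 3 held the RUNX letters, against 4614 of 32851 promoters, and 5 held a CCAAT box, against 11120 of 32851. A match in letters is no measure of binding.

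Of the late bone genes, 2 were measured. Dmp1, a phosphoprotein of young osteocytes, was at 1.89, 2.30, 2.47, 2.37 and 1.72 in nmf219 and at 2.07, 2.06, 2.41, 1.74 and 2.23 in WT. The genotypes covered nearly the same range, with a 95% interval of the log2 fold change from -0.18 to 0.22. Phex, an X-linked endopeptidase of osteoblasts and osteocytes that controls phosphate balance, was at 20.6, 19.8, 19.1, 20.3 and 12.5 in nmf219 and at 19.5, 13.6, 14.8, 7.80 and 20.7 in WT. In each genotype 1 library stood low, nmf219 replicate 5 and WT replicate 4. The log2 fold change was 0.30 (SE 0.22, limma adjusted p = 0.748), and it was 0.11 with Xist as a covariate. Per kilobase of exon, Dmp1 averaged 0.777 in nmf219 and 0.761 in WT, the lowest of the 29 genes in WT and in nmf219.

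Genes of collagen processing and of loose connective matrix ranked the libraries in more than 1 way. Col5a2, a type V chain that limits the width of type I fibrils, was at 1126, 1016, 1061, 1052 and 884 in nmf219 and at 952, 775, 818, 565 and 1052 in WT (log2 fold change 0.33, SE 0.14, limma adjusted p = 0.680). Its libraries stood in the same order as those of Col1a1. Lox, which crosslinks collagen, averaged 501 ± 57.7 in nmf219 and 427 ± 116 in WT (log2 fold change 0.27). Ogn, osteoglycin, a small proteoglycan, averaged 518 ± 61.7 in nmf219 and 433 ± 126 in WT (log2 fold change 0.30). Postn, periostin of the bone surface and fibrous tissue, averaged 1393 ± 188 in nmf219 and 1127 ± 236 in WT (log2 fold change 0.32). All of these were lowest in WT replicate 4 and overlapped between genotypes. Serpinh1, the collagen chaperone HSP47, was instead highest in WT replicate 4, at 2303 against 1796 to 1846 in the other WT libraries and 1658 to 1890.4 in nmf219. Cthrc1, a secreted collagen-related protein, was at 127, 115, 126, 119 and 118 in nmf219 and at 133, 142, 124, 173 and 124 in WT, likewise highest in WT replicate 4 (log2 fold change -0.19, SE 0.08, limma adjusted p = 0.680). Fkbp10, a chaperone of collagen crosslinking, averaged 279 ± 18.8 in nmf219 and 274 ± 15.1 in WT, with a 95% interval from -0.08 to 0.14.

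Enzymes of resorption had means on both sides of WT. Mmp9 (ENSMUSG00000017737, chromosome 2, 164940780 to 164955850), gelatinase B, which osteoclasts and other blood-derived cells secrete, was at 22.3, 26.3, 25.5, 25.4 and 19.8 in nmf219 and at 32.1, 28.8, 27.4, 28.7 and 35.2 in WT. Every nmf219 value of Mmp9 was thus below the lowest WT value. The mean was 23.9 ± 2.73 in nmf219 and 30.4 ± 3.18 in WT. The difference of -0.34 on the log2 scale (SE 0.09, 95% interval -0.53 to -0.15) did not pass over all genes (limma adjusted p = 0.444, unadjusted p = 0.00215). With the embryonic globin Hbb-y as a covariate Mmp9 was called, at -0.44 with limma adjusted p = 0.00454, and 0.213% of all genes were called. Over all alternatives the limma adjusted p of Mmp9 ran from 0.00454 to 0.985. Its log2 fold change was -0.36 in samples with description numbers 2162 to 2169 (limma adjusted p = 0.951). In numbers 2199 to 2208 it was -0.37 (limma adjusted p = 0.999).

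The other osteoclast enzymes gave no such split. Ctsk, cathepsin K, which cuts collagen in the acid under the osteoclast, was at 52.4, 53.3, 54.5, 52.1 and 42.0 in nmf219 and at 47.4, 40.6, 37.8, 31.2 and 58.7 in WT. The mean was on the other side from Mmp9, with a log2 difference of 0.26 (SE 0.14, limma adjusted p = 0.699). Acp5, tartrate-resistant acid phosphatase, a defining enzyme of osteoclasts, was at 2.63, 1.26, 1.75, 2.67 and 1.53 in nmf219 and at 2.39, 1.52, 2.03, 1.53 and 2.82 in WT. The genotypes of Acp5 covered nearly the same range. Tnfrsf11b, osteoprotegerin, the decoy that keeps osteoclasts from forming, averaged 11.1 ± 1.18 in nmf219 and 11.1 ± 1.20 in WT, with a 95% interval of the log2 fold change from -0.18 to 0.19. Its ratio to its ligand RANKL, the product of Tnfsf11, was not analysed here.

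A further 13 osteoclast genes had values, and 0 were called. Of these, 10 had a log2 fold change above 0 and 3 below, with a median log2 fold change of 0.03. Nfatc1, the factor that drives osteoclast formation and the one with the highest value, averaged 57.7 ± 4.35 in nmf219 and 56.7 ± 4.07 in WT. Itgb3, an integrin chain of the osteoclast seal, had the highest log2 fold change, 0.32 (limma adjusted p = 0.680), and Mitf, a transcription factor of osteoclasts and pigment cells, the lowest, -0.31 (limma adjusted p = 0.322). At an unadjusted p under 0.05, 1 of the 13 was higher and 1 lower, against 3.88% and 3.23% of all genes. Of 30 other osteoblast genes 0 were called, with 17 above 0 and 13 below and a median log2 fold change of 0.03. At an unadjusted p under 0.05, 2 of these 30 were higher and 5 lower (23.3% together), against 3.88% higher and 3.23% lower of all genes. Col11a1, a fibril collagen chain best known from cartilage, had the highest value, at 3728 ± 340.5 in nmf219 and 4115 ± 558 in WT. Dcn, a collagen-binding proteoglycan, had the highest log2 fold change, 0.33 (limma adjusted p = 0.717), and Msx2, a homeobox factor of skull bone, the lowest, -0.29 (limma adjusted p = 0.517).

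Ibsp and Col1a1 ordered the libraries differently. Ibsp was compared with each of the 28 others over the 10 libraries, by permutation tests with p-values adjusted over the 28. Smpd3 (Pearson's r = 0.85, permutation adjusted p = 0.0154; Spearman's rho = 0.87, permutation adjusted p = 0.0585) and Ifitm5 (r = 0.85, permutation adjusted p = 0.0171; rho = 0.76, permutation adjusted p = 0.134) passed by Pearson's r. Dmp1 was near them (r = 0.74, permutation adjusted p = 0.101; rho = 0.81, permutation adjusted p = 0.101). With genotype means removed, r was 0.89 for Smpd3 and 0.86 for Ifitm5. Without WT replicates 3 and 4, the libraries farthest from the median of Ibsp, r was 0.84 for Smpd3, 0.63 for Ifitm5 and 0.63 for Dmp1, and Runx2, Omd and Ogn were the 3 that then passed. These correlations rest in part on those 2 libraries. Without WT replicate 3 alone 19 genes passed, without WT replicate 4 alone 0, and without WT replicate 2 alone 1.

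Col1a1 was compared in the same way, as a description with no test, since it was chosen after its values were seen. Its rho was at least 0.75 for 12 of 28 genes, against 8.24% of all genes, and that of Ibsp for 3 of 28, against 1.11% of all genes. Col1a2 and Col5a2 had a rho of 1 with Col1a1, Sparc 0.96, Alpl 0.90, Lox and Ctsk 0.88, and Sp7, Omd and Phex 0.82. Ibsp itself had a rho of 0.35 with Col1a1 and Dmp1 0.36. The 2 libraries farthest from the median of Col1a1 were WT replicates 2 and 4. Without them, Pearson's r with Col1a1 was 0.98 for Col1a2, 0.94 for Sparc and 0.86 for Ctsk, and -0.45 for Ibsp. That set still held WT replicate 3, the highest library of Ibsp. For Ibsp and Col1a1, r was 0.45 over all 10 libraries and 0.56 without WT replicates 3 and 4. The sign of r for this pair thus depended on which libraries were left out. All of these points share libraries, depth and scaling.

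**Figure D4:**
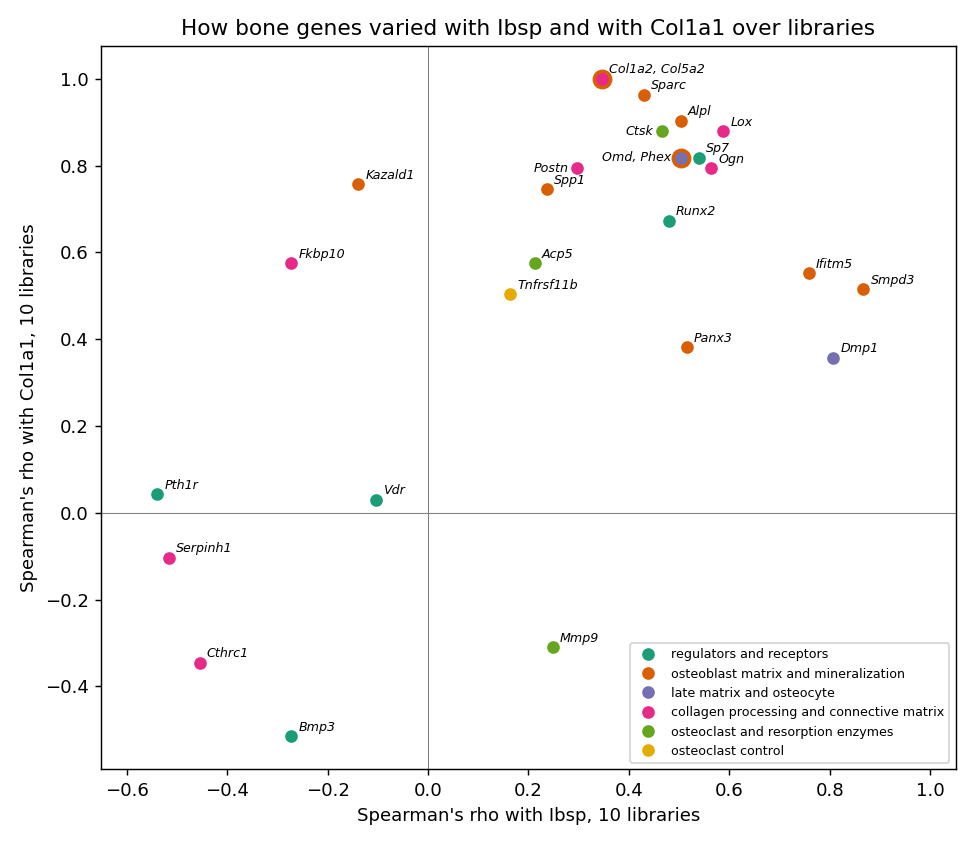
Spearman's rho with Ibsp (horizontal axis) and with Col1a1 (vertical axis) over 10 libraries for 27 bone genes, coloured by role; where points coincide, a ring shows the second. Smpd3, Ifitm5 and Dmp1 lie far to the right, with Ibsp, while Col1a2, Col5a2, Sparc, Alpl, Lox and Ctsk lie at the top, with Col1a1; Bmp3, Cthrc1, Serpinh1 and Mmp9 lie below 0 for Col1a1.

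Markers of other tissues varied over the same libraries, and their part in these values was not tested. Tendon and fibroblast markers, 10 of 10 measured, summed to 4778 to 6702 in nmf219, against 3410.0 to 6099 in WT, lowest in WT replicate 4, and 9 of 10 had a log2 fold change above 0, 4 of them with an unadjusted p under 0.05. Macrophage markers, 11 of 12 measured, summed to 221 to 285 in nmf219 and 155 to 300 in WT, and all 11 were lowest in WT replicate 4, as Col1a1 and Ctsk were. Of these 11, 10 had a log2 fold change above 0, 2 with an unadjusted p under 0.05. Cartilage markers, 8 of 10 measured, summed to 16652 to 22938 in nmf219 and 17381 to 26036 in WT. Of these, 7 of 8 were highest in WT replicate 4, as Serpinh1, Cthrc1 and Pth1r were, against 24.2% of all genes. Of the cartilage markers 7 of 8 had a log2 fold change below 0, 2 with an unadjusted p under 0.05. Skeletal muscle markers, 12 of 12 measured, summed to 951 to 3935 in nmf219 and 142 to 2404 in WT. Within WT the sum was highest in replicate 3 and lowest in replicate 4, as Ibsp was. The order of the other libraries differed in part. The muscle sum was 3935 in nmf219 replicate 1, where Ibsp was 4.38, and 368 in WT replicate 5, where Ibsp was 9.12. It was 676 in WT replicate 1, where Ibsp was 5.67, and 384 in WT replicate 2, where Ibsp was 2.12. How the muscle sum varied with Ibsp was not tested. All 12 muscle markers had a log2 fold change above 0, 11 of them with an unadjusted p under 0.05. Hypertrophic cartilage markers, 5 of 7 measured and 3 of them bone genes above, summed to 150 to 204 in nmf219 and 105 to 193 in WT, with 4 above 0, 1 of them at an unadjusted p under 0.05. Endothelial markers, 8 of 8, summed to 531 to 569 in nmf219 and 455 to 545 in WT. All 8 had a log2 fold change above 0, 5 with an unadjusted p under 0.05, and 6 were lowest in WT replicate 4. Erythroid markers, 7 of 8, summed to 2494 to 3931 in nmf219 and 1366 to 4927 in WT, with 5 above 0 and 0 at an unadjusted p under 0.05. Of the 12 inner ear markers, 7 had a log2 fold change above 0 and 5 below, 1 of them with an unadjusted p under 0.05. That 1 was Pax2, with a log2 fold change of -0.54 (limma unadjusted p = 0.000399, limma adjusted p = 0.176). Limma called 0 markers in each of these lists. Over all genes, 46.9% had a log2 fold change above 0. At an unadjusted p under 0.05, 3.88% of all genes were higher and 3.23% lower in nmf219. None of the measured markers was at 0 in any library. Hbb-y was at 6.15, 4.28, 3.66, 4.15 and 33.0 in nmf219 replicates 1 to 5 and at 11.4, 15.8, 20.5, 44.4 and 3.10 in WT replicates 1 to 5, highest in nmf219 replicate 5 and WT replicate 4, the libraries lowest in Col1a1 within their genotypes. With Hbb-y as a covariate the median log2 fold change of the 29 genes was 0.00, and that of Col1a1 was 0.26.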

How the data were processed

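Per the labels' protocols, Illumina libraries were made from total RNA that Trizol had extracted from frozen inner ears. The aligner, counter, strand setting, annotation and build were not given in the sources used here. The deposited table, made by the authors, gives 1 normalized signal per gene and library. Column totals of 990643 to 1009217 differ from those of plain CPM. Values are multiples (tolerance 0.01) of the worth of 1 read, 0.0239 to 0.0317. The authors also deposited means, a log2 fold change and mean log2 CPM, a signed fold change score, and a p-value with its false discovery rate, per the file headers.

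Groups and replicate numbers came from the sample titles. Chi-square over degrees of freedom was 7.93 to 61.1 for the 20 library pairs within genotypes, so none was treated as a repeat. The test was limma 3.58.1 (trend, R 4.3.3) on log2(value + 1), genotype as the only term, over 15472 genes, checked on simulated data. Single values used exact permutation tests, and correlations over 10 libraries 100000 permutations (SciPy 1.17.1). Exon lengths are unions from GENCODE M21. Alternatives were pseudocounts of 0.1 and 0.5, a mean value of at least 1, other scalings, blocks, covariates and left-out libraries. Members and lists were chosen with earlier results of these data known; all members with values are named, and from other lists the most abundant and the extreme genes.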

Additional observations from a re-analysis of the deposited data

Results flagged for a closer look

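Single libraries stood far from the other 4 of their genotype in 10 cases among 58 groups tested with Dixon's criterion. For a single group chance gives about 1 in 20. The 58 groups share libraries, and many of the genes varied together, so the 10 cases cannot be set against that rate. In nmf219, replicate 5 stood apart in 7 genes. It was lowest in Runx2 at 54.5, where the next library was at 67.8, in Omd at 15.0 (next 22.7), in Phex at 12.5 (next 19.1), in Lox at 401 (next 513), in Ogn at 409 (next 530.3) and in Ctsk at 42.0 (next 52.1), and highest in Bmp3 at 37.0 (next 32.4). The same library held 33.0 of Hbb-y, against 3.66 to 6.15 in the other 4 nmf219 libraries. Replicate 2 of nmf219 was lowest in the receptor gene Pth1r at 41.4 (next 47.7) and in the chaperone gene Serpinh1 at 1658 (next 1839). WT replicate 4 was highest in Serpinh1 at 2303 (next 1846). The part of any tissue or of age in these values was not tested.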

How the results depend on the processing

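The 29 bone genes gave 0 calls in 19 of 20 alternatives. With Hbb-y as a covariate 1 was called, Mmp9. The alternative with a mean value of at least 1 did not hold Ifitm5, which averaged 0.914 over the 10 libraries. The count over all genes was 13, and it was 2 with Xist as a covariate, 33 with Hbb-y as a covariate and 7 to 18 when 1 library was left out. It was 7 without nmf219 replicate 3, nmf219 replicate 4 or WT replicate 2, and 8 without nmf219 replicate 1. The replicate numbers did not pair the libraries (correlations of deviations from -0.475 to 0.136), and with a replicate block 2 genes passed. The number of genes that varied with Ibsp was 2, and 0 to 19 when 1 library was left out. The median log2 fold change of the bone genes was 0.134, from 0.0442 without WT replicate 4 to 0.221 without WT replicate 5 when 1 library was left out, 0.0244 without WT replicates 3 and 4, 0.0878 with the description number as a block and 0.00381 with Hbb-y as a covariate. With Xist as a covariate the median was 0.105. Of 29 genes, 17 kept their direction throughout. The others were close to 0 or turned with a setting, and the cause was not tested. With a pseudocount of 0.1 the value of Ibsp was 0.0206, and with every library rescaled to a sum of 1000000 that of Pth1r was -0.00149. With the description number as a block there were Ifitm5 at -0.0168 and Tnfrsf11b at -0.00879. With Xist as a covariate there were Serpinh1 at 0.0118 and Panx3 at 0.127. With Hbb-y as a covariate there were Omd at -0.0372, Smpd3 at -0.0747, Runx2 at -0.0609, Dmp1 at -0.0571, Ifitm5 at -0.0791 and Tnfrsf11b at -0.0673. Without WT replicates 3 and 4 together, added after the data were seen, there were Omd at -0.0671, Runx2 at -0.0603, Tnfrsf11b at -0.0433 and Serpinh1 at 0.00409. Leaving out 1 library gave ranges of -0.619 to 0.431 for Ibsp, -0.135 to 0.0405 for Acp5, -0.0702 to 0.0975 for Ifitm5, -0.0417 to 0.0623 for Tnfrsf11b, -0.0170 to 0.0453 for Pth1r, -0.0255 to 0.0697 for Dmp1, -0.000802 to 0.257 for Smpd3 and -0.000822 to 0.0556 for Fkbp10. Upper quartile scaling was also added after the data were seen. The planned limma-voom, edgeR, DESeq2 and TMM alternatives were not run, since the unit of the values was taken as a normalized signal. The values were nevertheless multiples of the worth of 1 read, and which genes a count model would call was not tested. The ratio of Tnfsf11 to Tnfrsf11b was not analysed here. Depth limits Ifitm5 most: its value in WT replicate 4 was 0.525, where 1 read was worth 0.0239.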
